A study of Homo sapiens with 6 samples.

Results

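The genes described here encode the eukaryotic translation initiation factors, the proteins that bring the ribosome, the initiator tRNA and the mRNA together at a start codon. They were taken from a gene count table of RPE-1 cells, an immortalized line from human retinal pigment epithelium, as all protein-coding genes whose names begin with EIF and a digit from 1 to 6. The eIF2 kinases (names that begin with EIF2AK) and EIF4A3, a helicase of the exon junction complex, were left out. This rule gave 51 genes of the 58735 in the table, of which 19951 were protein-coding, and it used no measured value. After a filter on low counts 49 of the 51 were tested. The other 2, EIF4E1B and EIF1AY, were listed at 0 counts in all 6 libraries.

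The study asked how mRNA abundance changes when SON, a splicing factor that sits in nuclear speckles, is depleted. The cells carry Cetn2, a centriolar protein, tagged with GFP, and their PLK4 transgene answers to doxycycline through rtTA. All 6 libraries came from cells of this line whose PLK4, a kinase needed for centriole duplication, was switched on by 1 µg/mL doxycycline, so no library shows the cells without induction. In the siSON group (3 libraries) the cells received an siRNA against SON, and in the siControl group (3 libraries) a scramble siRNA. The hours of treatment are not given in the sources used here, and nothing says that the libraries came from separate cultures, so p-values measure only the spread between these libraries.

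Initiation works in steps. The factor eIF2, a trimer that binds GTP, carries the initiator tRNA to the small ribosomal subunit, and eIF2B recharges eIF2 with GTP. The large complex eIF3, with eIF1, eIF1A and eIF5, holds the small subunit ready and checks the start codon, while eIF4E, eIF4G and the helicase eIF4A recruit the capped end of the mRNA. Phosphorylation of eIF2 by its kinases blocks eIF2B and lowers initiation in general. The 4E-binding proteins block the cap-binding step by occupying eIF4E.

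Library totals ran from 54572365 to 69764836 counts. SON, the target of the siRNA, was at 295, 313 and 284 CPM in the 3 siControl libraries (counts scaled to library size) but at 68.0, 70.0 and 65.0 CPM in those of siSON, a log2 fold change of -2.14 (SE 0.06, edgeR adjusted p 6.78e-10). Replicate 1 stood apart within both groups: the chi-square per degree of freedom of a pair of replicates was 18.5 to 24.7 where replicate 1 was in the pair, and 7.21 and 6.77 for the other pairs. The cytoskeletal genes KRT8, KRT18 and VIM summed to 7453 to 8588 CPM in siControl and 7796 to 7889 CPM in siSON, a sum made up mostly of VIM (means 7154 and 6488 CPM), while the means of KRT18 were 220 and 615 CPM and those of KRT8 594 and 754 CPM. Of 8 genes of differentiated retinal pigment epithelium, TYR had no counts, RPE65 had 6 to 18 counts in siControl libraries and 0 in siSON libraries, and their sum was 51.5 to 53.2 CPM in siControl and 74.0 to 83.4 CPM in siSON. That sum followed BEST1, MITF and OTX2, whereas PMEL had means of 2.06 and 0.200 CPM and LRAT of 0.433 and 0.0692 CPM. The leukocyte, endothelial and epithelial markers PTPRC, PECAM1 and EPCAM together reached 2.36 to 3.31 CPM in siControl and 0.551 to 1.19 CPM in siSON. In a bulk sample a lower level may stand for less RNA per cell or for fewer cells that express the gene, and these cannot be told apart.

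Several of the genes share sequence with others, which may bear on their counts. The sequences below show codons of functional sites and were not chosen as the shared stretches. Codons around the lysine that is turned into hypusine, the modified residue that eIF5A needs for its function, are shown for the 3 eIF5A genes because all of them had higher counts after SON knockdown. The lysine codon, codon 50 in each, is in capitals, and the lines run from coding base 118 to 180 of GENCODE 29 transcripts.
EIF5A: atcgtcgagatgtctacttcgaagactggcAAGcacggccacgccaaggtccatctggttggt
EIF5A2: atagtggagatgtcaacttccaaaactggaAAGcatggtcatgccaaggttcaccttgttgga
EIF5AL1: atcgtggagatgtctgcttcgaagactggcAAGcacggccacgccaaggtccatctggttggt
Over its 465 coding bases EIF5AL1, a gene of 1 exon, differed from EIF5A at 5, an identity of 98.9%, whereas EIF5A2 (462 coding bases) was 71.7% identical to EIF5A. Of the 50-base windows of the EIF5A transcript, 30.1% occurred unchanged in EIF5AL1. The coding sequences of EIF3C and EIF3CL had no differing base where they aligned, and 96.8% of the 50-base windows of the longest coding EIF3C transcript occurred in EIF3CL too.

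The eIF4E-binding proteins hold eIF4E through a short motif. Its codons are in capitals for EIF4EBP2, which had the largest rise of the 49 genes, and for EIF4EBP3.
EIF4EBP2: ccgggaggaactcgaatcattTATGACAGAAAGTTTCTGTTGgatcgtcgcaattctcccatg
EIF4EBP3: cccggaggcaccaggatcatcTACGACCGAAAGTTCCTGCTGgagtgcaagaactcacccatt
The first capital base opens codon 54 in EIF4EBP2 and codon 40 in EIF4EBP3. Of the windows of EIF4EBP3, 71.8% also lie in the read-through gene ANKHD1-EIF4EBP3.

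Most initiation factor genes had higher relative mRNA levels after SON knockdown. Of the 49 tested, 41 (83.7%) passed edgeR's quasi-likelihood test at the 0.05 threshold after adjustment, where 71.7% of all 16591 genes tested did and 77.4% of the protein-coding genes did. Higher levels were called for 34 genes (69.4%), against 35.2% of all genes and 40.3% of protein-coding genes, and lower levels for 7 (14.3%), against 36.5% and 37.1%. Other translation genes had similar shares called higher: 63 of 82 cytosolic ribosomal protein genes (76.8%) and 14 of 18 cytosolic aminoacyl-tRNA synthetase genes (77.8%). Their median log2 fold changes were 0.39 and 0.81. Under cyclic loess normalization the ribosomal protein genes split into 24 higher and 26 lower, the synthetase genes into 11 and 4. The median log2 fold change was 0.55 over the 49 genes and -0.03 over all genes tested. At least a 2-fold change was called for 10 of the 49, a smaller share than the 29.3% of all genes. Of the 10, 8 were higher (16.3%, against 8.72% of all genes) and 2 lower (4.08%, against 20.5%). The 8 include EIF4A1 and EIF5AL1, for which the share of reads from other genes was not tested. The groups did not overlap for 44 of the 49 (89.8%), and for 75.1% of all genes. With library size alone as the scaling, the log2 fold changes of all genes shifted by a median of -0.20, the initiation factor median was 0.35, and the split of their calls was 31 higher and 10 lower. All genes then split into 4441 higher and 7351 lower. Cyclic loess normalization shifted all genes by a median of 0.14 but gave a lower initiation factor median of 0.29, with a split of 31 and 10. For all genes the split was 6044 and 5640. The 31 include EIF3C and EIF3CL, near-identical copies not called in the fit reported above. The higher calls of EIF5B, EIF1AX, EIF4G1, EIF4H and EIF3L were lost under cyclic loess normalization. With genes of a mean count under 50 left out, 44 of 45 initiation factor genes were called, 34 higher and 10 lower. Under that filter 10226 of all 13136 genes were called, 5070 higher and 5156 lower.

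**Figure D1:**
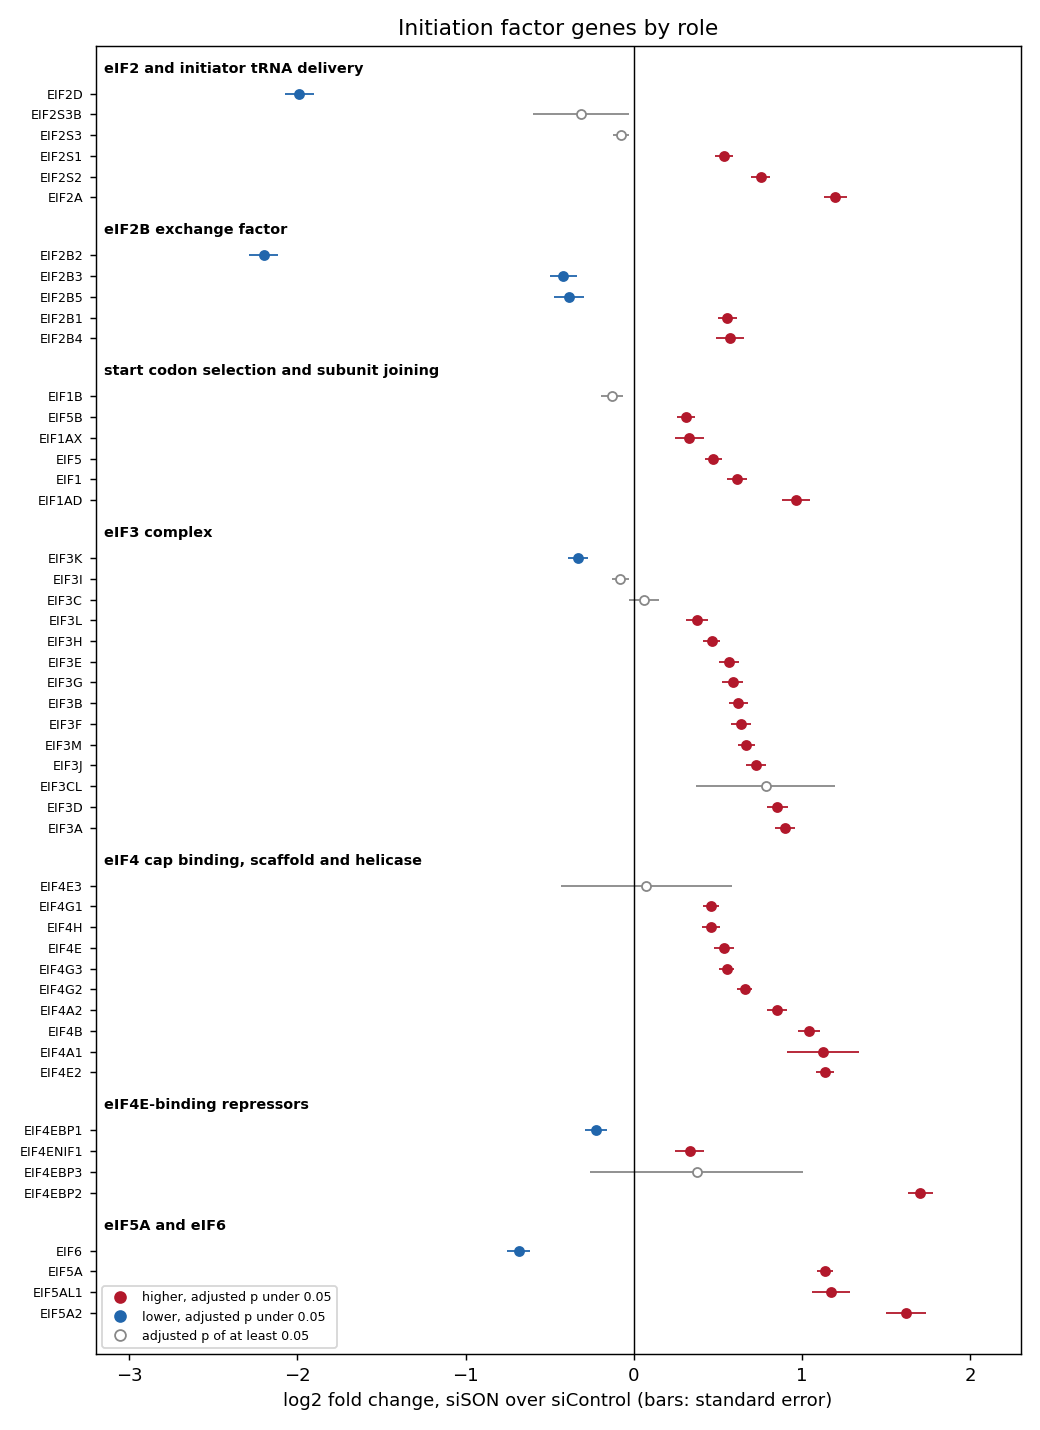
Log2 fold change (x axis, siSON over siControl) of each of the 49 initiation factor genes tested, 1 row per gene, grouped by role; bars are standard errors, filled points passed the adjusted p threshold and open points did not. EIF2B2 and EIF2D lie alone at the left, near -2, and EIF4EBP2 and EIF5A2 lie farthest to the right.

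Together the 51 genes took a larger share of the counts in the siSON libraries. The share was 0.861%, 0.840% and 0.864% in siControl replicates 1 to 3 and 1.210%, 1.157% and 1.179% in siSON replicates 1 to 3. Every siSON library was above every siControl library, with means of 0.855% ± 0.0132 and 1.18% ± 0.0266 (SD, n = 3 each). By a 2-sided exact permutation test p was 0.1, which no design of 3 libraries against 3 can undercut.

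In the group around eIF2, which delivers the initiator tRNA, the members moved in opposite directions. Of 6 genes tested, 3 rose, 1 fell and 2 did not pass the test, so 66.7% were called where 71.7% of all genes were. EIF2D, a factor that can place tRNA on the small subunit without eIF2 and takes part in ribosome recycling, had 42.1, 35.3 and 38.1 CPM in siControl and 9.72, 10.2 and 9.21 CPM in siSON. All siSON values lay far below the lowest control, and 25.2% of the control level remained (log2 fold change -1.99, SE 0.09, edgeR adjusted p 9.13e-09). EIF2A, another factor named for initiator tRNA binding and separate from the eIF2 trimer, had 78.4, 82.4 and 91.0 CPM in siControl and 205, 182 and 191 CPM in siSON. It was thus at least 2-fold higher in the fit (log2 fold change 1.20, SE 0.07, edgeR adjusted p 4.92e-08), with no overlap.

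Among the subunits of the eIF2 trimer itself, EIF2S1, the alpha subunit that the eIF2 kinases phosphorylate, went from 106, 102 and 105 CPM to 148, 147 and 159 CPM. The log2 fold change of 0.54 (SE 0.05) had an edgeR adjusted p of 3.74e-06, with every siSON library above every control. The beta subunit EIF2S2 rose by 0.75 on the log2 scale (adjusted p 3.55e-07). The gamma subunit EIF2S3, which binds GTP and the tRNA, had 158, 165 and 159 CPM in siControl and 153, 152 and 152 CPM in siSON, and its log2 fold change of -0.08 did not pass the test (edgeR adjusted p 0.173). That gene was called lower with library size alone (-0.27, adjusted p 4.64e-04) and under cyclic loess normalization (-0.37, limma adjusted p 3.69e-05), and with genes of a mean count under 50 left out (-0.13, adjusted p 0.0210), while EIF2S1 and EIF2S2 were called higher under all of these. EIF2S3B, a copy of EIF2S3 that shares 25.5% of its 50-base windows with it, was near the floor at 0.822 ± 0.187 and 0.662 ± 0.136 CPM (SD, n = 3 each; adjusted p 0.344).

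The exchange factor eIF2B, a complex of 5 subunits, was divided: all 5 genes passed the test, 2 higher and 3 lower. Of all genes tested 71.7% passed, 35.2% higher and 36.5% lower. EIF2B2, the beta subunit of its regulatory part, had 37.8, 36.1 and 35.5 CPM in siControl and 7.75, 8.71 and 7.34 CPM in siSON. The siSON libraries held 21.8% of the control level, and this was the largest fall of the 49 genes (log2 fold change -2.20, SE 0.09, edgeR adjusted p 4.10e-09). EIF2B4, the delta subunit of the same regulatory part, had 26.8, 25.3 and 27.1 CPM in siControl and 43.5, 38.7 and 35.3 CPM in siSON, a log2 fold change of 0.57 (SE 0.08, edgeR adjusted p 8.43e-05). EIF2B1, the alpha subunit, rose by 0.56 (adjusted p 4.34e-06). The catalytic epsilon subunit EIF2B5 and its partner EIF2B3, the gamma subunit, were lower, with -0.38 and -0.42 on the log2 scale (edgeR adjusted p 0.00248 and 6.71e-04). For all 5 the groups did not overlap, as for 75.1% of all genes tested, and the directions were the same under all 4 scalings tried. Per kilobase of exon, EIF2B2 stood at 6.70 CPM in siControl, between EIF2B1 (19.9) and EIF2B3 (5.38), and at 1.46 CPM in siSON, below the other 4 subunits, which ranged from 3.53 to 29.3. Exon length here joins the exons of all transcripts of a gene, 5446 bases for EIF2B2 and 3411 for EIF2B3. Their longest coding transcripts have 4314 and 1923 bases, so the place of EIF2B2 among the subunits in siControl depends on the length used.

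EIF2B2 lies on GRCh38 chromosome 14 from 75002911 to 75012366 on the plus strand, with 8 exons in its longest coding transcript. It overlaps AL049780.1 and AL049780.3 on the other strand, which had 0 to 9 and 0 to 8 counts per library, and 24.6% of the windows of its longest coding transcript occur in AL049780.3. Whether the counting used strand is not given in the sources used here, so reads from EIF2B2 and these genes may not be told apart. EIF2D lies on chromosome 1 from 206571292 to 206612463 on the minus strand (15 exons) and shares no exon base with RASSF5, the gene it overlaps on the other strand. None of the windows of the longest coding EIF2D transcript occurred in another gene.

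**Figure D2:**
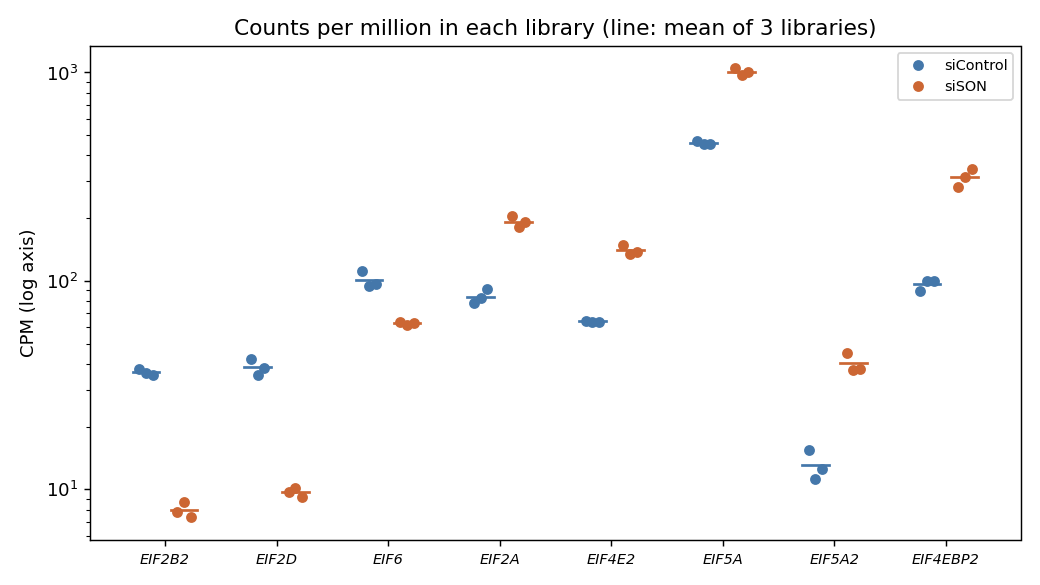
CPM (y axis, log scale) of 8 initiation factor genes in each of the 6 libraries; points are libraries, blue for siControl and orange for siSON, and lines are means of 3 libraries. For each of the 8 the points of the groups are apart, lower in siSON for EIF2B2, EIF2D and EIF6 and higher in siSON for the other 5.

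Genes listed under start codon selection and subunit joining were mostly higher. Of 6 tested, 5 rose (83.3%, against 35.2% of all genes) and 0 fell (3 and 1 with library size alone). EIF1AD changed most, from 20.4, 17.1 and 17.6 CPM to 34.3, 35.0 and 38.0 CPM (log2 fold change 0.96, SE 0.08, edgeR adjusted p 1.40e-06). Its protein has an eIF1A-like domain, and whether it takes part in these steps was not tested. EIF1, which guards against start at wrong codons, rose by 0.61, and EIF5, which triggers GTP hydrolysis by eIF2, rose by 0.47 (adjusted p 3.81e-06 and 4.99e-06). Smaller values were found for EIF1AX (0.33, adjusted p 0.00434) and for EIF5B (0.31, adjusted p 2.64e-04), the GTPase that joins the large subunit. Neither of those calls held when libraries were scaled by size alone (0.14 and 0.11) or by cyclic loess, where EIF5B came to -0.03. EIF1B, a paralog of EIF1, had 37.0, 38.8 and 38.7 CPM in siControl and 36.8, 33.5 and 34.3 CPM in siSON. The siSON values sat just below the controls, and the difference did not pass the test (log2 fold change -0.13, SE 0.07, edgeR adjusted p 0.0960); it passed with library size alone (-0.33, adjusted p 9.93e-04), under cyclic loess normalization (-0.21, limma adjusted p 0.0160), with genes of a mean count under 50 left out (-0.19, adjusted p 0.0219), without siControl replicate 1 (-0.18, adjusted p 0.0486) and without siSON replicate 1 (-0.16, adjusted p 0.0474).

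The eIF3 complex is the largest initiation factor and the scaffold on which the others meet the small subunit. Of its 14 genes tested, 10 rose (71.4%, against 35.2% of all genes), 1 fell and 3 did not pass the test. The median log2 fold change of the 14 was 0.61 (0.41 when scaled by library size, 0.29 by cyclic loess). EIF3A, the largest subunit, had 566, 525 and 542 CPM in siControl and 1099, 972 and 971 CPM in siSON. It showed the largest rise among the called subunits (log2 fold change 0.90, SE 0.06, edgeR adjusted p 1.33e-07), and no siSON library came near the controls. EIF3D, a subunit that can bind the cap of some mRNAs, followed with 0.85, and EIF3J, a loosely attached subunit, with 0.73. The values for EIF3M, EIF3F, EIF3B, EIF3G, EIF3E, EIF3H and EIF3L ran down from 0.67 to 0.37, and the rise of EIF3L, which shares 59.7% of its windows with other genes, was lost under cyclic loess normalization (0.08).

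EIF3K was the only eIF3 gene called lower. This small peripheral subunit had 77.8, 71.2 and 71.8 CPM in siControl and 60.0, 57.1 and 58.5 CPM in siSON, a log2 fold change of -0.33 (SE 0.06, edgeR adjusted p 3.90e-04). EIF3L, its partner at the edge of the complex, moved the other way in the same fit. EIF3I, which forms a module with EIF3B and EIF3G, had 189.8, 184 and 194 CPM in siControl and 183, 174 and 181 CPM in siSON. Its log2 fold change was -0.08 (adjusted p 0.169), while EIF3B and EIF3G rose by 0.62 and 0.59. With library size alone EIF3I was called lower (-0.28, adjusted p 3.24e-04), as it was under cyclic loess normalization (-0.39, limma adjusted p 2.26e-05) and with genes of a mean count under 50 left out (-0.14, adjusted p 0.0221).

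EIF3C cannot be read as the other subunits can. It had 1.39 CPM per kilobase of exon in siControl, where the 12 subunits other than EIF3C and EIF3CL had 18.2 to 109.7, and nearly all of its sequence is shared with EIF3CL. EIF3C had 9.69 ± 0.273 and 10.1 ± 0.530 CPM (SD, n = 3 each; log2 fold change 0.06, adjusted p 0.554), and EIF3CL had 0.198 ± 0.0660 and 0.341 ± 0.0776 CPM (adjusted p 0.109). Neither passed the test, but both were called higher under cyclic loess normalization (EIF3C 0.27, limma adjusted p 0.0185; EIF3CL 1.31, limma adjusted p 0.00687). How reads that fit both copies were treated is not given in the sources used here.

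**Figure D3:**
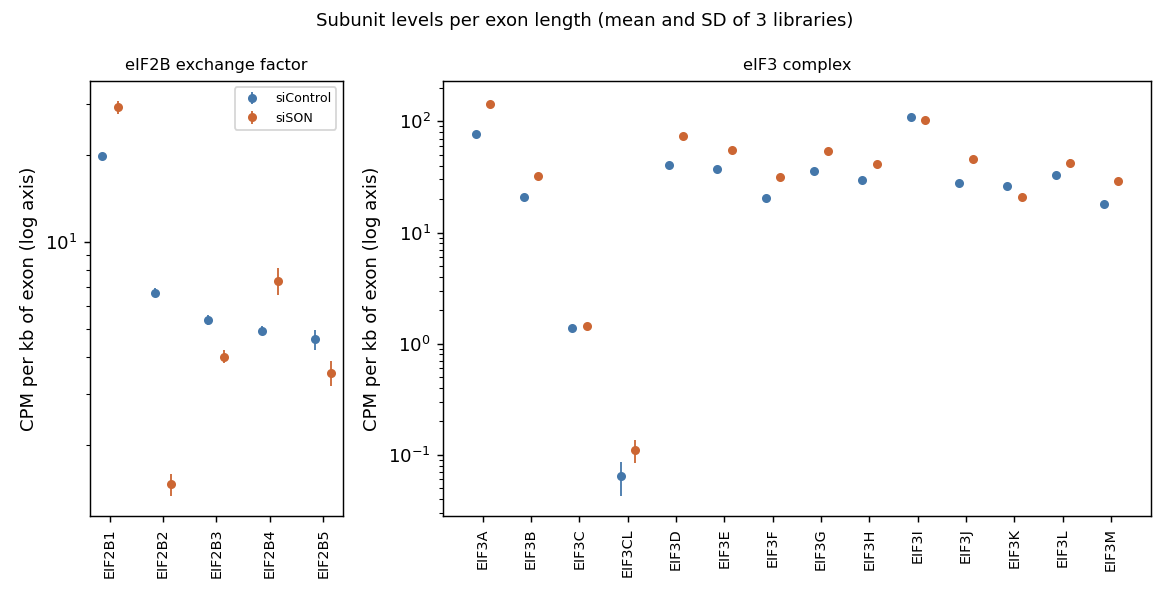
CPM per kilobase of exon (y axis, log scale) of the eIF2B genes at the left and the eIF3 genes at the right, mean and SD of 3 libraries, blue for siControl and orange for siSON. EIF2B2 drops from 6.70 to 1.46 while EIF2B1 and EIF2B4 rise, and EIF3C and EIF3CL lie far below the other eIF3 genes in both groups.

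The eIF4 factors, which bind the cap, bridge it to eIF3 and unwind the leader, were called in 1 direction. Of 10 genes tested, 9 rose (90%, against 35.2% of all genes) and 0 fell. Under cyclic loess normalization 7 rose and 0 fell. EIF4E2, a cap-binding relative of eIF4E that represses rather than starts translation of many mRNAs, had 64.6, 63.6 and 63.6 CPM in siControl and 149, 135 and 138 CPM in siSON. The increase was 2.20-fold (log2 fold change 1.14, SE 0.06, edgeR adjusted p 1.64e-08), and 31.8% of its windows also occur in AC073254.1. EIF4E itself went from 48.4, 49.3 and 53.6 CPM to 74.8, 72.2 and 72.6 CPM, a smaller step (log2 fold change 0.54, SE 0.06, edgeR adjusted p 1.00e-05). EIF4E3, the third relative, was barely detected, with 0.244, 0.299 and 0.228 CPM in siControl and 0.465, 0.233 and 0.0984 CPM in siSON, and the groups overlapped (log2 fold change 0.08, SE 0.51, edgeR adjusted p 0.901).

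All 3 scaffold genes rose. EIF4G1, the main scaffold, had 581, 551 and 558 CPM in siControl and 749.8, 759 and 812 CPM in siSON (log2 fold change 0.46, SE 0.05, edgeR adjusted p 6.94e-06). EIF4G3, its paralog, rose by 0.55, and EIF4G2, a shorter relative that lacks the eIF4E-binding part, rose by 0.66, its mean moving from 1103 ± 15.5 CPM to 1742 ± 53.5 CPM (SD, n = 3 each). The EIF4G1 call was lost under cyclic loess normalization (0.05, limma adjusted p 0.359), as was that of EIF4H (0.46, and 0.07 there). EIF4G3 and EIF4G2 kept theirs.

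Of the helicases and their helpers, EIF4B, which stimulates eIF4A, had 699, 622 and 673 CPM in siControl and 1494, 1295 and 1320.1 CPM in siSON (log2 fold change 1.04, SE 0.07, edgeR adjusted p 9.75e-08). EIF4A2 had 249, 239 and 239 CPM in siControl and 468, 444 and 401 CPM in siSON (log2 fold change 0.85, SE 0.06, edgeR adjusted p 2.45e-07). In both genes the lowest siSON library was well above the highest control, and 37.1% of the windows of EIF4B also occur in other genes, among them EIF4BP6. EIF4A1 was counted at only 4.47, 2.99 and 2.68 CPM in siControl and 8.87, 7.54 and 5.65 CPM in siSON, with a log2 fold change of 1.12 (SE 0.21, edgeR adjusted p 6.70e-04). On the annotation 48.6% of its exon bases are shared with other genes on the same strand, among them SENP3-EIF4A1, and 100% of the windows of its longest coding transcript also occur in other genes. SENP3-EIF4A1 itself had 4 to 7 counts in siControl libraries and 21 to 46 in siSON libraries. How reads that fit several of these genes were counted is not given in the sources used here, so the EIF4A1 values cannot be read as the level of the whole gene.

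The proteins that hold eIF4E back diverged. EIF4EBP2, a 4E-binding protein, had 89.7, 99.9 and 99.8 CPM in siControl and 282, 317 and 344 CPM in siSON, 3.26-fold higher and with wide separation (log2 fold change 1.70, SE 0.08, edgeR adjusted p 9.72e-09). EIF4EBP1, the better known member, had 47.9, 46.9 and 45.9 CPM in siControl and 42.9, 39.0 and 38.3 CPM in siSON (log2 fold change -0.23, SE 0.07, edgeR adjusted p 0.00935). The fall of EIF4EBP1 was small, and it was not past the threshold without siSON replicate 2 (adjusted p 0.0511) or without siSON replicate 3 (adjusted p 0.0519). EIF4ENIF1, which carries eIF4E into the nucleus and to processing bodies, rose by 0.33 (adjusted p 0.00414), and by 0.14 with library size alone (adjusted p 0.175). EIF4EBP3 was near the floor, with 8 to 15 counts in siControl libraries and 2 to 20 in siSON libraries.

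The last group holds eIF5A, which helps the ribosome through difficult peptide bonds, and eIF6, which keeps the ribosomal subunits apart. EIF5A, the common form, had 471, 453 and 452 CPM in siControl and 1046, 971 and 1009 CPM in siSON, a 2.20-fold increase (log2 fold change 1.14, SE 0.05, edgeR adjusted p 6.50e-09). EIF5A2, its paralog, had 15.4, 11.3 and 12.6 CPM in siControl and 45.2, 37.5 and 38.0 CPM in siSON, 3.07-fold higher (log2 fold change 1.62, SE 0.12, edgeR adjusted p 3.26e-07). In both genes every siSON library was above every siControl library.

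EIF5AL1 had 3.50, 3.32 and 3.37 CPM in siControl and 7.19, 8.30 and 7.51 CPM in siSON (log2 fold change 1.17, SE 0.11, edgeR adjusted p 3.25e-06). That fold change lay within its standard error of the value for EIF5A, with which it shares nearly all of its coding sequence, and the share of EIF5A reads in its count was not tested. EIF6 went the other way, from 111, 94.6 and 96.9 CPM to 63.6, 61.8 and 62.9 CPM, so that 62.2% of the control level remained (log2 fold change -0.68, SE 0.07, edgeR adjusted p 3.51e-06). Of its windows 18.95% also lie in AL121753.1. With EIF2D, EIF2B2, EIF2B3, EIF2B5, EIF3K and EIF4EBP1, EIF6 made up the 7 genes called lower, and all 7 of these calls were the same under the 4 scalings.

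Balances between related genes were compared as ratios of counts inside each library, which do not depend on a single scaling factor per library. Cyclic loess normalization does not use a single factor, and fold changes within a pair can move differently under it. There EIF1 and EIF1B came to 0.23 and -0.21 on the log2 scale (0.61 and -0.13 with TMM scaling). EIF5A and EIF5A2 came to 0.72 and 1.65 (1.14 and 1.62 with TMM scaling). For EIF4EBP1 over EIF4EBP2 the ratio was 0.533, 0.469 and 0.460 in siControl and 0.152, 0.123 and 0.111 in siSON, a log2 difference of -1.93. EIF4E over EIF4E2 was 0.750, 0.775 and 0.842 in siControl and 0.503, 0.534 and 0.526 in siSON (log2 difference -0.60), lower in every siSON library than in any control. EIF1 over EIF1B was 9.99, 9.21 and 10.1 in siControl and 16.4, 15.6 and 17.1 in siSON (log2 difference 0.74).

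The ratio of EIF5A over EIF5A2 was 30.6, 40.1 and 35.9 in siControl and 23.1, 25.9 and 26.6 in siSON (log2 difference -0.49). EIF4G1 over EIF4G2 had a log2 difference of -0.20, again with no overlap. For these 5 pairs the 2-sided exact permutation test gave p = 0.1, its smallest possible value, and 0.200 after Benjamini-Hochberg adjustment over the 10 pairs compared. For EIF4G1 over EIF4G3 the groups were closer (log2 difference -0.09, exact permutation p = 0.2, adjusted 0.286). The remaining 4 pairs, EIF4A1 over EIF4A2, EIF4E over EIF4E3, EIF3C over EIF3CL and EIF5A over EIF5AL1, rest on a gene with few counts or a near-identical copy, and their exact permutation p-values were 0.2 to 0.8.

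**Figure D4:**
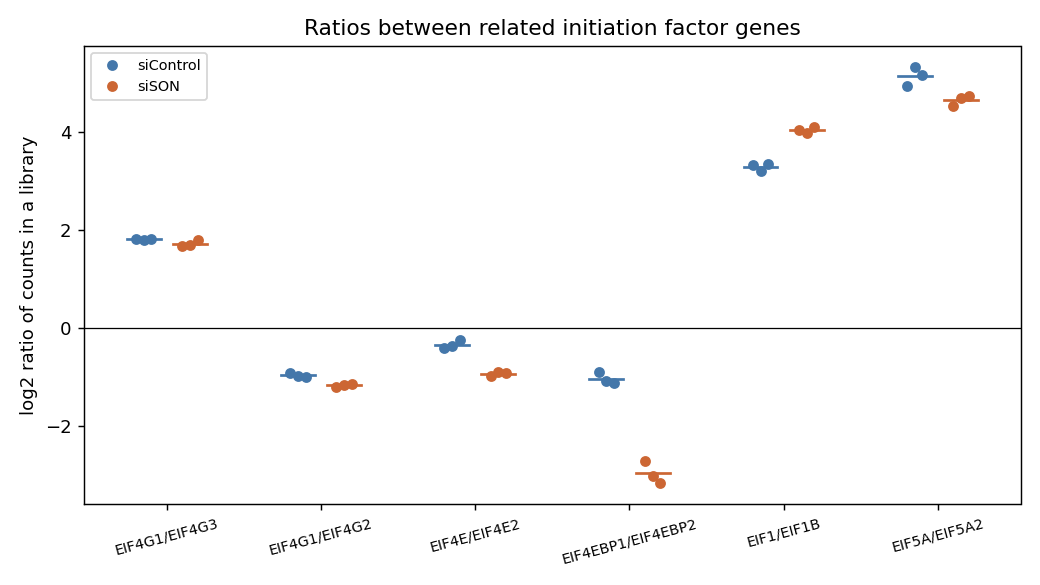
Log2 ratio of counts (y axis) for 6 pairs of related genes in each library, blue for siControl and orange for siSON, with lines at the means of 3 libraries; the 4 pairs that hold a gene with few counts or a near-identical copy are not drawn. The EIF4EBP1/EIF4EBP2 ratio lies farthest from its controls, and the EIF4G1/EIF4G3 ratios lie close together.

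Genes that act on the factors were counted from lists written for this purpose. Of all genes tested 71.7% were called, 35.2% higher and 36.5% lower. Among 13 genes of eIF2 phosphorylation control, 11 (84.6%) were called, 10 higher and 1 lower (8 and 2 with library size alone, 7 and 3 under cyclic loess normalization). The largest rises were those of EIF2AK4, the kinase that senses uncharged tRNA (log2 fold change 1.38, edgeR adjusted p 3.34e-09), and EIF2AK3, the kinase of the endoplasmic reticulum (1.37, adjusted p 3.20e-08). IMPACT, an inhibitor of EIF2AK4, was the 1 gene called lower (-0.27, adjusted p 0.00809). ATF4, the transcription factor whose translation rises when eIF2 is phosphorylated, averaged 245 ± 11.3 CPM in siControl and 589 ± 21.0 CPM in siSON (SD, n = 3 each), a rise of 1.27 on the log2 scale (edgeR adjusted p 5.83e-09); it was chosen for mention after its value was seen.

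Of 26 partners of initiation and cap signalling 21 (80.8%) were called, 14 higher and 7 lower, beside 71.7% of all genes and 77.4% of protein-coding genes. PDCD4, an inhibitor of eIF4A, and CTIF, a factor for translation from the nuclear cap-binding complex, rose most (1.55 and 1.22, edgeR adjusted p 2.45e-09 and 1.06e-08). RPS6KB2, a ribosomal protein kinase, and MKNK2, a kinase that phosphorylates eIF4E, fell most (-1.38 and -1.02, adjusted p 3.51e-08 and 2.59e-07). With library size alone the split of this list was 11 higher and 8 lower, and under cyclic loess normalization it was 12 and 9, with BZW1 called higher with TMM scaling (0.15) and lower there (-0.19, limma adjusted p 0.0110).

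Later steps of translation were covered by 2 further lists. For elongation 8 of 12 genes tested (66.7%, below the 71.7% of all genes) were called, 6 higher and 2 lower (4 and 3 with library size alone, 6 and 4 under cyclic loess normalization). Of the 14 genes listed, EEF1A2 and EEF1G were not tested. EEF1G, which shares 99.9% of its exon bases with other genes on the same strand, had 0 counts in all 6 libraries. How reads that fit several genes were counted was not tested. The elongation factor genes EEF2 and EEF1D were among the 6 called higher but were called lower under cyclic loess normalization (-0.21 and -0.13, limma adjusted p 5.85e-04 and 0.0183). DOHH, the enzyme that completes hypusine on eIF5A, rose by 1.25 (edgeR adjusted p 7.17e-08), and EEF1E1 by 0.84. DPH1, which starts the diphthamide modification of eEF2, and EEF2K, the kinase that inhibits eEF2, fell by 2.34 and 0.78 on the log2 scale (adjusted p 1.69e-07 and 7.54e-06). For termination and recycling all 10 genes were called, 9 higher and 1 lower (7 and 1 with library size alone, 8 and 1 under cyclic loess normalization): ABCE1, the recycling ATPase, rose by 1.20 and PELO, which rescues stalled ribosomes, by 1.11, while JMJD4, which modifies the release factor eRF1, fell by 1.26. Medians of the 4 lists ran from 0.27 to 0.58 on the log2 scale, from 0.076 to 0.38 with library size alone and from 0.028 to 0.51 under cyclic loess normalization. The lowest of each range was that of elongation.

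Gene structure was set beside the fold changes as a description. Over the 48 tested genes with introns, Spearman's rho between log2 fold change and median intron length was -0.15, and with transcript GC content it was -0.18. Over 12685 protein-coding genes tested that have introns rho was 0.25 for intron length, and over the 12681 with a GC value it was -0.21. The genes share their libraries and their lengths set how deeply they are counted, so these values describe the genes listed and no more.

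Promoter sequence was available for 43 of the 51 genes, from RefSeq on GRCh38.p14. EIF2S2, EIF3A, EIF3CL, EIF3E, EIF3G, EIF3H, EIF3L and EIF4EBP1 had no entry. Windows before the start site are shown for the 2 genes with the largest falls and the 2 with the largest rises, 190 bases each, all of them upstream of the GENCODE 29 start. Each window is the far part of the 250 bases before the RefSeq start, so the bases nearest to that start are not shown. Capitals mark the GC box, whose letters are GGGCGG. They also mark the box known as CCAAT, and the E-box with the letters CACGTG, which reads the same on both strands. On the other strand the GC box reads CCGCCC and the second motif appears as ATTGG.
EIF2B2, chr14:75002671-75002860, plus strand: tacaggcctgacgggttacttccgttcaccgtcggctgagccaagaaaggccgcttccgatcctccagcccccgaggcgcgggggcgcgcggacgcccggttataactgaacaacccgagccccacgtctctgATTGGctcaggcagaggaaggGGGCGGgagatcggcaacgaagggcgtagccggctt
EIF2D, chr1:206612526-206612715, minus strand: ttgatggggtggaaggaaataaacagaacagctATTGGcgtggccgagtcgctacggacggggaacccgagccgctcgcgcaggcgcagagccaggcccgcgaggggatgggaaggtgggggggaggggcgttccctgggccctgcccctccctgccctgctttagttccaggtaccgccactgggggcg
EIF4EBP2, chr10:70403895-70404084, plus strand: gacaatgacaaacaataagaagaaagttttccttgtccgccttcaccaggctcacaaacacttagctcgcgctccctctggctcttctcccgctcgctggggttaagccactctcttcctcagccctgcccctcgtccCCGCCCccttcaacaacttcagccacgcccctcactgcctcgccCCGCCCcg
EIF5A2, chr3:170908698-170908887, minus strand: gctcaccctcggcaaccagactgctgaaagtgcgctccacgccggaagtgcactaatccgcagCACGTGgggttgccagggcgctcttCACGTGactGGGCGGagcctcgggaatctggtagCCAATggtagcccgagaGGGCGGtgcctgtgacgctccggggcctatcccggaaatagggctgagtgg
In these windows EIF5A2 held 2 GC boxes, 2 E-boxes and 1 CCAAT, EIF4EBP2 held 2 GC boxes, EIF2B2 held 1 GC box and 1 CCAAT, and EIF2D held 1 CCAAT. GC content was 60.0% to 67.9%. Over the full 250 bases before the start, and on either strand, GGGCGG was found in 29 of the 43 genes (67.4%) and in 42.6% of all 35116 promoters. EIF2D is among the 29, although its window above holds no GC box. CCAAT was found in 16 (37.2%, against 32.0% of all), CACGTG in 10 (23.3%, against 6.34%) and TGACGTCA in 0 (against 1.65%). CACGTG was present in 6 of the 28 genes called higher and 2 of the 6 called lower that have an entry. A match is a run of letters, not a site shown to be bound, and all promoters in the table include those of non-coding genes.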

How the data were processed

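Libraries from 6 RPE-1 samples (3 siControl, 3 siSON) were made with an mRNA-seq kit, per the labels' protocols, and the authors deposited a table of raw gene counts. The submitters' processing notes name cutadapt 1.16, STAR 2.5.2a, featureCounts 1.6.2, DESeq2 1.28.1 and hg38; strand setting, treatment of multi-mapping reads and annotation are not given in the sources used here. All 58735 gene identifiers were found in GENCODE 29, which gave positions and exon lengths.

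The counts were tested with edgeR 4.0.16 in R 4.3.3 (filterByExpr with a minimum count of 10, TMM factors, robust quasi-likelihood fit, group alone), with Benjamini-Hochberg adjustment over all 16591 genes tested and a threshold of 0.05. CPM are edgeR's counts relative to the TMM-scaled library size, and the SE is the log2 fold change over the square root of F. Levels per kilobase divide CPM by the joined exon length of all transcripts of a gene. The floor of 3 counts corresponded to 0.0430 to 0.0550 CPM, for counting error only. Alternatives used limma 3.58.1 and DESeq2 1.42.0; the 4 scalings were TMM, RLE, library size alone and cyclic loess. Ratios of counts used an offset of 0.5 and a 2-sided exact permutation test. The scripts were tested on simulated data.

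Library values with fold change, SE and adjusted p are given for genes called at 2-fold or more, for the highest and lowest gene of each role group, and for EIF2S1, EIF4E, EIF4G1, EIF4A1, EIF4A2 and EIF5A; other lists are represented by their 2 largest rises and falls. Further library values, as for EIF2S3, EIF3I and EIF2B4, were added after their values were seen. The members and lists were chosen with earlier results of these data known.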

Additional observations from a re-analysis of the deposited data

How the results depend on the processing

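Among the initiation factor genes, DESeq2 and edgeR with RLE factors gave the same direction and call as reported for all 49. Tested against a 1.5-fold change, 6126 of 16591 genes were called (2419 higher, 3707 lower). Of the 49 initiation factor genes 17 were called, which over both directions together is a share no larger than that of all genes. Of these 17, 15 were higher and 2 lower, while among all genes fewer were called higher than lower. Calls in the lists of eIF2 control, initiation partners, elongation and termination were then 6 of 13, 11 of 26, 4 of 12 and 4 of 10. That test asks for a larger change by construction. With library size alone 5 initiation factor genes were called at 2-fold or more and the median log2 fold change was 0.35; under cyclic loess normalization the median was 0.29. Leaving out each library in turn gave 40 to 42 initiation factor calls, 9 to 11 of at least 2-fold, and medians of 0.52 to 0.57. In the same refits 11153 to 11783 of all genes were called, with 16865 to 17234 tested. All-gene counts at 2-fold or more are not given here for library size alone or for these refits. The log2 difference of EIF5A over EIF5AL1 ran from -0.11 to 0.052 when libraries were left out. Directions reversed for EIF5B under cyclic loess normalization (-0.031), EIF2S3B under the same (0.17), EIF3C with library size alone (-0.13), EIF4EBP3 with limma-voom (-0.027) and when single libraries were left out (-0.41 to 0.86), and EIF4E3 with library size alone (-0.12), limma-voom (-0.14), the replicate block (-0.061) and when single libraries were left out (-0.61 to 0.47); of these only EIF5B was called as reported, and EIF3C was called higher under cyclic loess normalization (0.27). The cause was not tested.

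The replicate numbers were not taken as pairs, since the labels do not say that they mark a batch. Correlations of same-numbered libraries' deviations were 0.0461 to 0.194, above the -0.138 to 0.0286 of different-numbered libraries. All 6 libraries correlated best with their own number, and whether a shared batch lies behind this was not tested. With the replicate block 12313 genes were called, 41 of them initiation factor genes (34 higher, 7 lower), and elongation calls went from 8 to 10. EIF4E3, EIF4EBP3, EIF2S3B and EIF3CL had few counts; the part of depth and of shared sequence in their values was not tested.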
